A study of Mus musculus with 8 samples.

Results

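Small heat shock proteins of muscle were followed in C2C12 myotubes infected with a control retrovirus or with one that drives HDAC4, a histone deacetylase of class IIa. The set holds 8 genes, Hspb1, Hspb2, Hspb3, Hspb6, Hspb7, Hspb8, Cryab and Bag3, chosen by name. The platform annotation gave 8 probes that name 1 of them and no other gene, out of 31769 probes on the array. These 8 probes cover 7 of the 14510 genes named on the array, since Cryab has a pair of them and no probe is named for Hspb6, which was not analysed here.

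C2C12 cells are an established line of mouse myoblasts, and in low serum they fuse into multinucleate myotubes. The control group (Neo, n = 4 arrays) was stably selected with a virus encoding Neo, and the HDAC4 group (n = 4 arrays) with a virus encoding HDAC4 together with Neo, so both groups went through infection and selection. Both were taken at 90% confluence and held in 2% horse serum for 4 days. Both groups come from 1 cell line, and the labels do not say whether samples of a group were grown separately. The p-values therefore rest on a spread between samples that may be technical. Each array compared cells, labelled with Cy5, with a common mouse reference RNA, labelled with Cy3, which a protocol names as liver RNA. No array had the dyes swapped.

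Small heat shock proteins are chaperones that share an alpha-crystallin domain, assemble into oligomers and hold unfolding proteins without using ATP. Striated muscle makes more kinds of them than most tissues, and they are known there for binding actin, desmin, titin and filamin at the Z-disc. Bag3 is not a small heat shock protein but the co-chaperone that joins Hspb8 to Hsp70 and directs damaged filamin to autophagy.

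Values are log2 ratios of cells over reference after each array was centred on its median, and the direction is likely rather than stated, read from muscle genes that lay far above the reference. Neo arrays carried between 19248 and 22193 values each and HDAC4 arrays between 17014 and 18521, so every HDAC4 array had fewer than any Neo array. The cause of this, and its part in the differences below, was not tested. Many values sit at what looks like a minimum of the reference signal, here called the reference floor. There 10 times the deposited ratio is a whole number within 0.001, and the ratio then follows the signal of the cells alone. Among the 206 probes whose 8 values all sat at the floor, the median HDAC4 minus Neo difference was -0.55 (log2), with 90.3% negative. For the 13854 tested probes with no floor value the median was 0.0060. Where the floor shift is said below to be taken out, -0.55 was subtracted from the floor values of HDAC4 arrays alone. Whether the shift comes from the measurement or from the genes that these probes name was not tested. The arrays numbered 1 stood apart from the other 6 in both groups: their mutual correlation was 0.945, their correlation with the remaining arrays reached 0.91 at most, and the other 6 arrays correlated among themselves at 0.9355 or above. For the set, results that these arrays or the floor moved are therefore given with and without them. No probe is named for Hdac4, so the labels were not checked against the gene the virus carries.

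Myotube markers lay far above the reference on every array, but muscle genes also set the likely direction of the ratios, so this is no separate check of the cells. Over the 8 tested probes of the myotube markers (Myog, Ckm, Des, Tnnt3, Mylpf, Actc1), array medians of the log2 ratio ran from 8.76 to 9.07 in Neo and from 8.39 to 8.79 in HDAC4. Of the values of this list, 97.1% were at the reference floor. For the 5 tested probes of proliferating myoblasts, array medians ran from -4.04 to -3.13 in Neo and from -3.85 to -2.48 in HDAC4. Myf5 alone of these lay above the reference, averaging 1.49 in Neo and 1.09 in HDAC4. Pax7 had too few values to be tested. For the 5 fibroblast probes, array medians ran from -3.20 to -2.83 in Neo and from -2.91 to -1.40 in HDAC4. Col3a1 alone of these lay above the reference, averaging 2.00 in Neo and 1.93 in HDAC4. None of the probes of these 3 lists passed in limma over all probes. At an unadjusted p under 0.05 in limma, 1 was higher (Thy1, a fibroblast marker) and 0 were lower, beside 2.63% and 4.4% of all tested probes. Without both arrays numbered 1, where 1.51% of all probes passed, a probe of the myotube marker Actc1 passed, with HDAC4 lower. Its 8 values were all at the floor. The part of such shifts in the values below was not tested.

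No small heat shock protein passed the test over all probes when group was the only term, but 4 of the 8 probes had groups that did not overlap. Hspb3 and Hspb7 lay lower on every measured HDAC4 array than on any Neo array, and Bag3 and Hspb8 lay higher. Hspb1, Hspb2 and Cryab had overlapping groups. In that group-only fit with limma, 21 of 16748 probes (0.125%) had a Benjamini-Hochberg adjusted p under 0.05, 1 higher and 20 lower, and 0 of the 8 probes of the set were among them. With the replicate number as a block, 9 probes passed, again 0 of the set. At an unadjusted p under 0.05 in limma, 1 probe of the set was higher and 2 were lower, where 2.63% and 4.4% of all tested probes met these limits. Groups did not overlap for 5.25% of all tested probes, 2.07% with HDAC4 higher and 3.18% with HDAC4 lower. The median difference over the 8 probes was -0.12, beside -0.00358 over all tested probes.

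**Figure D1:**
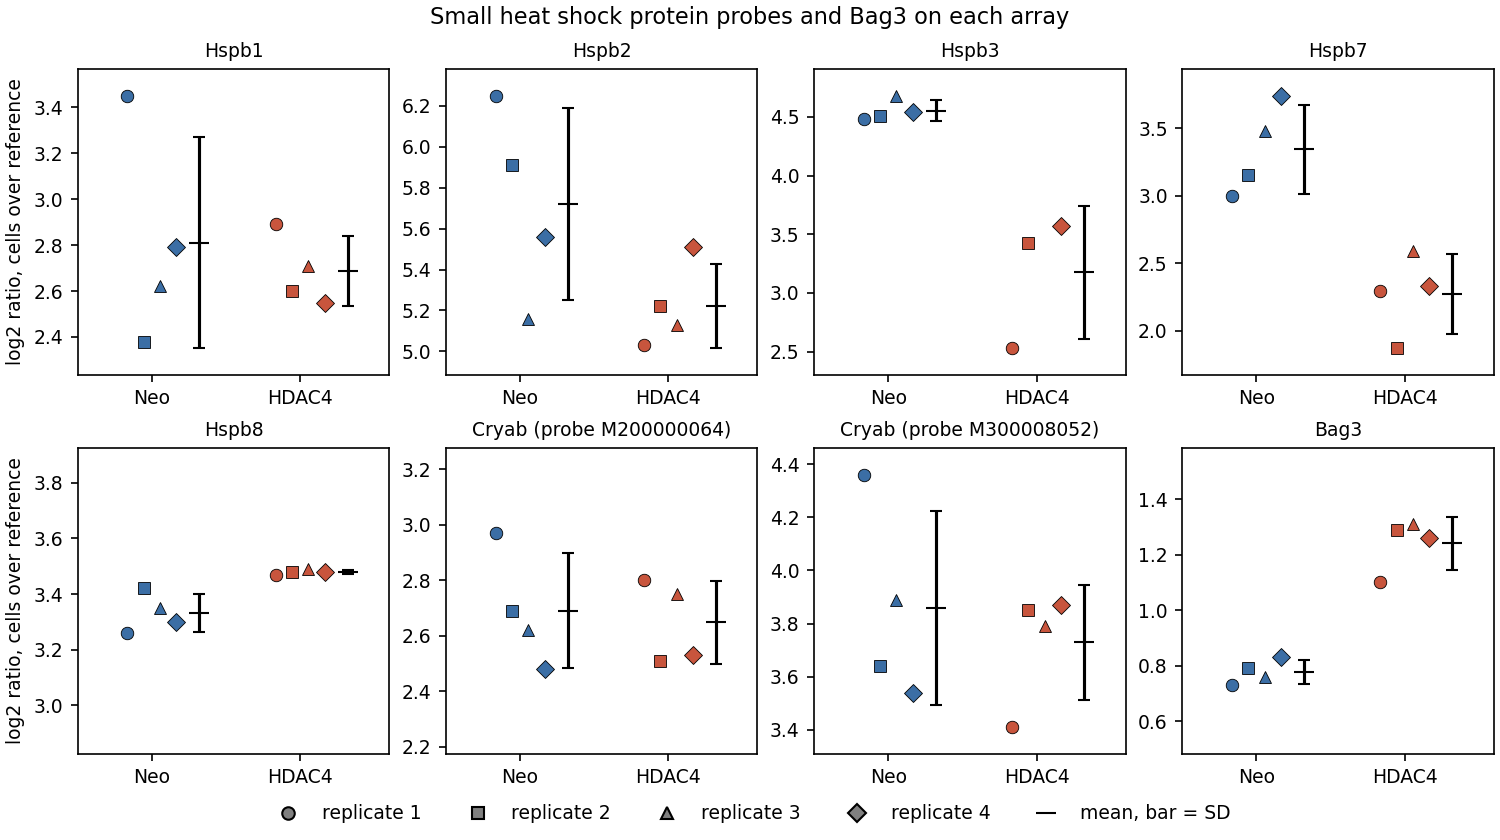
Log2 ratio of cells over reference (vertical axis, centred on each array's median) for each of the 8 probes in Neo and HDAC4 samples. Each point is 1 array with the replicate number as its shape, and the bars beside them give mean and SD; Hspb3 and Hspb7 are lower and Bag3 and Hspb8 higher on every measured HDAC4 array, while the other 4 probes overlap.

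Hspb3 had the largest difference of the set. It is a muscle-restricted member that pairs with Hspb2 and is made as myoblasts differentiate. Its log2 ratio was 4.48, 4.51, 4.68 and 4.54 in Neo replicates 1 to 4, and 2.53, 3.43 and 3.57 in HDAC4 replicates 1, 2 and 4. HDAC4 replicate 3 had no value, for a reason not given in the sources used here. As in any bulk sample, fewer cells that make the transcript and less transcript per cell cannot be told apart. The 4 Neo arrays lay close together, and every measured HDAC4 array lay below the lowest of them, with replicate 1 the lowest. Neo arrays averaged 4.55 ± 0.09 (SD, n = 4) and HDAC4 arrays 3.18 ± 0.57 (SD, n = 3). Expression was 2.60-fold lower in HDAC4 (log2 difference -1.38 ± 0.25, SE; limma adjusted p = 0.122 over all probes). The exact two-sided permutation p of 0.0286 was the smallest that 4 against 3 arrays allow when arrays are exchanged freely. With same-numbered arrays kept as pairs, an exact permutation added after seeing the data, p was 0.250, the smallest that 3 pairs allow.

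All 7 values of Hspb3 were at the reference floor, so they can also be read as the signal of the cells in the authors' units, on the inference that the floor is 10. On that reading the Neo arrays stood at 225, 229, 259 and 238 units, and the HDAC4 arrays with a value at 58, 109 and 121 units. Hspb3 passed with a term for the arrays numbered 1, at -1.33 ± 0.18 (SE; limma adjusted p = 0.0295), a fit in which 0.645% of all probes passed. It also passed without both of these arrays, at -1.08 (adjusted p = 0.0251), and without HDAC4 replicate 1 alone, at -1.05 (adjusted p = 0.0388), where 1.51% and 0.465% of all probes passed. It did not pass with the replicate number as a block, at -1.33 (adjusted p = 0.151), nor with the term for the arrays numbered 1 together with the floor shift taken out, at -0.78 (adjusted p = 0.143). With the shift of floor probes taken out, the difference was -0.83 (adjusted p = 0.520), and 0% of all probes passed, with 1145 at an unadjusted p under 0.05 in limma. Of the 206 floor probes, 9.22% had a lower difference than Hspb3.

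Hspb7 was lower on all 4 HDAC4 arrays. It is found mainly in heart and skeletal muscle, where it binds filamin C. Its log2 ratio was 3.0, 3.15, 3.48 and 3.74 in Neo replicates 1 to 4 and 2.29, 1.87, 2.59 and 2.33 in HDAC4 replicates 1 to 4. The highest HDAC4 array, replicate 3, stayed below the lowest Neo array, replicate 1. Group means were 3.34 ± 0.33 for Neo and 2.27 ± 0.29 for HDAC4 (SD, n = 4 each). This is 2.11-fold lower (log2 difference -1.07 ± 0.21, SE; limma adjusted p = 0.125; exact permutation p = 0.0286, the smallest that 4 against 4 arrays allow when exchanged freely). With pairs kept, the exact permutation p was 0.125 for Hspb7, Bag3, Hspb8 and Hspb2, the smallest that 4 pairs allow.

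The difference of Hspb7 was present within every same-numbered pair. It was -0.72, -1.27, -0.90 and -1.41 for numbers 1 to 4. Without both arrays numbered 1 it was -1.19 (limma adjusted p = 0.0595), and with a term for them it was -1.07 (adjusted p = 0.0574). Of its values, 2 in Neo and all 4 in HDAC4 were at the reference floor. With the floor shift taken out the difference was -0.52 (adjusted p = 0.679), and 14.1% of the 206 floor probes had a lower difference than Hspb7.

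Hspb2 had a lower mean in HDAC4, but its groups overlapped. Hspb2 was first known as a binding partner of the myotonic dystrophy kinase Dmpk, and it forms a complex with Hspb3. Its log2 ratio was 6.25, 5.91, 5.16 and 5.56 in Neo replicates 1 to 4, and 5.03, 5.22, 5.13 and 5.51 in HDAC4 replicates 1 to 4. The spread came mostly from the Neo arrays, where replicate 1 was the highest and replicate 3 lay among the HDAC4 values. Pairs 1 and 2 differed by -1.22 and -0.69, and pairs 3 and 4 by -0.03 and -0.05. Neo arrays averaged 5.72 ± 0.47 (SD, n = 4) and HDAC4 arrays 5.22 ± 0.21 (SD, n = 4), a difference of -0.50 ± 0.23 (SE; limma adjusted p = 0.734; exact permutation p = 0.114). With 1 array left out the difference lay between -0.68, without Neo replicate 3, and -0.32, without Neo replicate 1, and without both arrays numbered 1 it was -0.26 (adjusted p = 0.573). Hspb2 had 5 of 8 values at the floor, and with the floor shift taken out its difference was -0.22.

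Bag3 was higher on every HDAC4 array, with no value at the reference floor. As the co-chaperone of Hspb8, Bag3 holds small heat shock proteins and Hsp70 in 1 complex, and it is a classical target of the heat shock factor Hsf1. Its log2 ratio was 0.73, 0.79, 0.76 and 0.83 in Neo replicates 1 to 4 and 1.1, 1.29, 1.31 and 1.26 in HDAC4 replicates 1 to 4. The groups were well apart, and the spread within a group was small beside the gap. Neo arrays averaged 0.78 ± 0.04 (SD, n = 4) and HDAC4 arrays 1.24 ± 0.10 (SD, n = 4). Bag3 was 1.38-fold higher (log2 difference 0.46 ± 0.12, SE; limma adjusted p = 0.296; exact permutation p = 0.0286). The 95% interval of the difference ran from 0.20 to 0.72.

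The difference of Bag3 barely moved with the processing. Same-numbered pairs differed by 0.36, 0.50, 0.55 and 0.43, and over 20 other fits on the probe the difference lay between 0.43 and 0.51. Its adjusted p was 0.0595 without both arrays numbered 1 and 0.0711 with a term for them. Of 22 alternatives, Bag3 passed in 1, with arrays weighted by their quality, at 0.50 (limma adjusted p = 0.0154), a fit in which Hspb3 (-1.13, adjusted p = 0.00908) and Hspb7 (-1.06, adjusted p = 0.0167) passed too and 3.45% of all probes did. Of the tested probes never at the floor, 3.03% had a higher difference than Bag3.

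Hspb8, the partner of Bag3, differed by a small amount with almost no spread among the HDAC4 arrays. Its log2 ratio was 3.26, 3.42, 3.35 and 3.30 in Neo replicates 1 to 4 and 3.47, 3.48, 3.49 and 3.48 in HDAC4 replicates 1 to 4. The groups did not overlap, although Neo replicate 2 came close to the HDAC4 arrays. Neo arrays averaged 3.33 ± 0.07 (SD, n = 4) and HDAC4 arrays 3.48 ± 0.01 (SD, n = 4), a 1.11-fold difference (log2 0.15 ± 0.11, SE; limma adjusted p = 0.877; exact permutation p = 0.0286). The limma interval ran from -0.10 to 0.40, because limma draws the spread of each probe towards that of all probes. No value of Hspb8 was at the floor, and 23.1% of probes never at the floor had a higher difference.

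**Figure D2:**
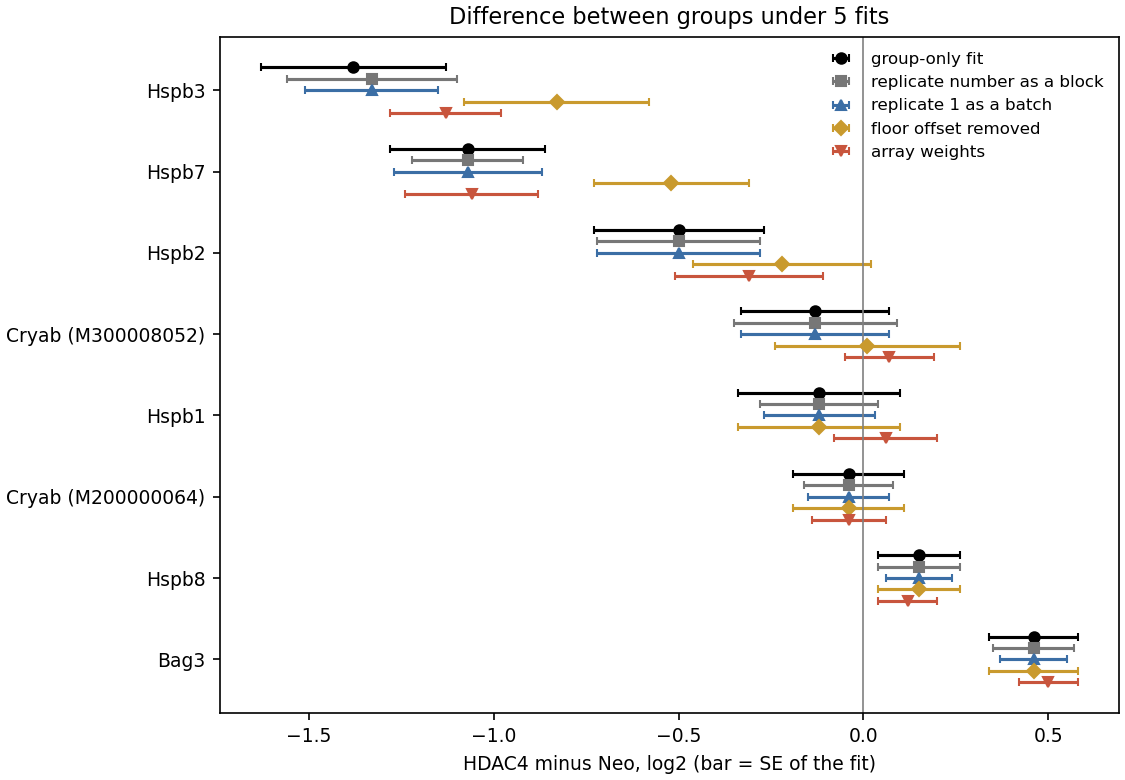
HDAC4 minus Neo difference (horizontal axis, log2, bars give the SE) of each of the 8 probes under 5 fits. Hspb3 and Hspb7 move from -1.38 and -1.07 to -0.83 and -0.52 when the floor shift is taken out, while Bag3 stays at 0.46 or above in all 5 fits.

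The promoters of the 4 genes with separate groups are shown because Hspb3 and Hspb7 lay on one side of the control and Bag3 and Hspb8 on the other. Each line gives the 250 bases before the RefSeq start (GRCm38.p6, read along the gene's strand), at chr13:113663677-113663926 for Hspb3 (minus strand), chr4:141420529-141420778 for Hspb7 (plus strand), chr7:128523333-128523582 for Bag3 (plus strand) and chr5:116422865-116423114 for Hspb8 (minus strand). Capitals mark matches to the motifs described after the sequences.
Hspb3: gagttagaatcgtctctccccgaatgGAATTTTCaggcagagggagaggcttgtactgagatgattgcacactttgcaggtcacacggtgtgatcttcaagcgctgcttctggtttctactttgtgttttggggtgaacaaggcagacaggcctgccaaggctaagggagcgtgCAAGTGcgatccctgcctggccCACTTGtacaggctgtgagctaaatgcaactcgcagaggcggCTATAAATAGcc
Hspb7: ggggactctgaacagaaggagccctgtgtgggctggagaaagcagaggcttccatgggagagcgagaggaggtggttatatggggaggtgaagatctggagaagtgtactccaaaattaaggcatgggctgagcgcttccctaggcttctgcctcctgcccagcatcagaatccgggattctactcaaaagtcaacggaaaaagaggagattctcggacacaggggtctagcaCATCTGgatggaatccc
Bag3: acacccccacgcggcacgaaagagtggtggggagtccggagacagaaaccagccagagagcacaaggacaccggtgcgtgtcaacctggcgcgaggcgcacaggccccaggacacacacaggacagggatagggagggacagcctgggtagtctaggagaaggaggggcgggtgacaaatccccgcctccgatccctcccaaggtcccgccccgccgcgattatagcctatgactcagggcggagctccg
Hspb8: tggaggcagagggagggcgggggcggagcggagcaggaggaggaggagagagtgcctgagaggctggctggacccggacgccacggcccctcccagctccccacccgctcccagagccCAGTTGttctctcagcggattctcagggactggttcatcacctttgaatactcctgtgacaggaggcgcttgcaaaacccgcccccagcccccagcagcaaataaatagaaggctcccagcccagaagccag
The motifs searched on both strands were the heat shock factor half-site pairs GAANNTTC and TTCNNGAA, the E-box CANNTG bound by myogenic factors, the MEF2 consensus and the CArG box of serum response factor. Overlaps between motifs were allowed.

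Hspb3 had the most matches of these 4 genes. Its window held a MEF2 consensus match, CTATAAATAG, from 12 to 3 bases before the start. Within it lie the TATA box letters TATAAA, from 11 to 6 bases before the start, and whether they act as a TATA box was not tested. MEF2 is the factor that class IIa deacetylases such as HDAC4 bind. The MEF2 consensus occurred in 2.92% of 32851 promoter windows of the same length, and TATAAA in 12.4%. Hspb3 also held 1 GAANNTTC match, found in 6.69% of windows, and 2 E-boxes. The window of Hspb7 held 1 E-box, as did that of Hspb8, and E-boxes occurred in 66.2% of windows. The Bag3 window held no match to these motifs, nor did Hspb7 and Hspb8 hold one to GAANNTTC, to TTCNNGAA (7.17% of windows), to the MEF2 consensus or to the CArG box (1.47%). The window of Hspb1, whose groups overlapped, was searched too and held GAANNTTC matches (GAAGTTTC and GAACCTTC) and E-boxes. A match is a run of letters and does not show that a factor binds. Whether any match bears on the differences was not tested.

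Hspb1 and Cryab did not differ beyond the spread between arrays. Hspb1, known as Hsp27 in humans, caps actin filaments and is phosphorylated through the p38 pathway. Its log2 ratio was 3.45, 2.38, 2.62 and 2.79 in Neo replicates 1 to 4, and 2.89, 2.60, 2.71 and 2.55 in HDAC4 replicates 1 to 4. The arrays numbered 1 were the highest of each group, and the HDAC4 values lay inside the range of the Neo values. Neo arrays averaged 2.81 ± 0.46 (SD, n = 4) and HDAC4 arrays 2.69 ± 0.15 (SD, n = 4), a difference of -0.12 (95% interval -0.62 to 0.37; limma adjusted p = 0.958; exact permutation p = 0.743). It was 0.09 without Neo replicate 1.

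Cryab encodes alphaB-crystallin, the chaperone of desmin, and both of its probes are annotated to the same transcripts. The first, M200000064, was at 2.97, 2.69, 2.62 and 2.48 in Neo replicates 1 to 4 and at 2.80, 2.51, 2.75 and 2.53 in HDAC4 replicates 1 to 4. The second, M300008052, was at 4.36, 3.64, 3.89 and 3.54 in Neo and at 3.41, 3.85, 3.79 and 3.87 in HDAC4. Neo replicate 1 was the highest array on both probes, while HDAC4 replicate 1 was the highest of its group on the first and the lowest on the second. The differences were -0.04 (95% interval -0.37 to 0.29; limma adjusted p = 0.977; exact permutation p = 0.800) and -0.13 (-0.57 to 0.32; limma adjusted p = 0.949; exact permutation p = 0.629). The mean of both probes differed by -0.08. Cryab and Hspb2 are neighbours on chromosome 9, and the RefSeq table places Hspb2 inside the span it lists for Cryab. The difference between these genes was not tested.

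**Figure D3:**
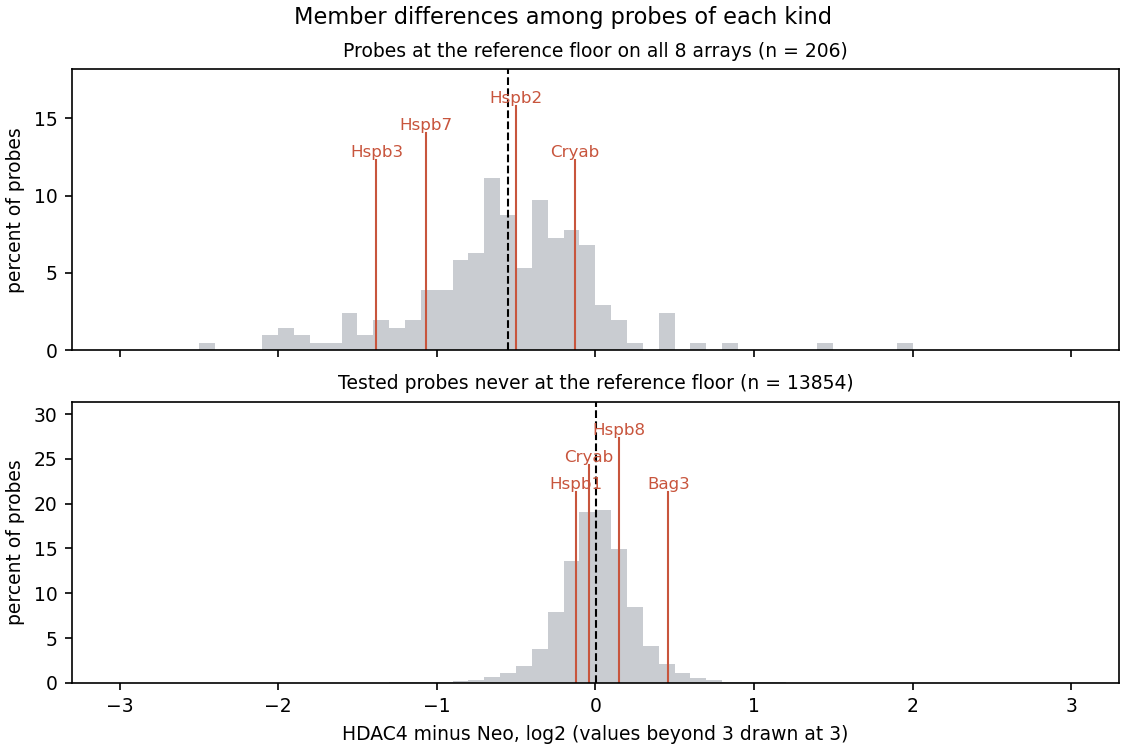
Distribution of the HDAC4 minus Neo difference (horizontal axis, log2; vertical axis, percent of probes) over 206 probes at the reference floor on all 8 arrays (top) and 13854 tested probes never at the floor (bottom), with dashed medians at -0.55 and 0.0060. Red lines mark the set, at the top the 4 probes with any value at the floor and at the bottom the 4 with none; Hspb2 lies near the floor median, Hspb3 and Hspb7 to the left of it, and Bag3 in the right tail of the lower panel.

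All 4 probes with any value at the floor had a negative difference. Those of Hspb3, Hspb7, Hspb2 and the second of Cryab had differences of -1.38, -1.07, -0.50 and -0.13. The floor held 7 values of Hspb3, 6 of Hspb7 and 5 of Hspb2, but only 1 of the second Cryab probe. The 4 probes with none had differences between -0.12 and 0.46. Hspb1 (-0.12) and the first of Cryab (-0.04) were negative too, and Bag3 and Hspb8 positive. Over the whole set 30.2% of the values were at the floor. With the median shift of floor probes taken out, the differences were -0.83 for Hspb3 and -0.52 for Hspb7, neither past the threshold. Whether that shift is itself a difference between the cells was not tested.

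The wider chaperone network did not pass. Of the 45 genes listed for Hsp70, Hsp90, Hsp40 and the chaperonins, 29 had a tested probe. Of their 34 probes 0 passed in limma, 25 had a positive and 9 a negative difference, and 0 had an unadjusted p under 0.05. The median was 0.10, beside -0.00358 over all probes, of which 8275 had a positive and 8473 a negative difference. At an unadjusted p under 0.05 in limma, 2.63% of all tested probes were higher and 4.4% lower. These values over all probes also stand beside the counts of the lists below. The smallest p belonged to Dnajb2, a neuronal and muscle Hsp40, whose probes differed by 0.27 ± 0.14 and 0.70 ± 0.42 (SE; adjusted p = 0.771 and 0.833), and to Ptges3, the Hsp90 co-chaperone p23, with 0.19 ± 0.12 and -0.02 ± 0.19 on its probes (SE; adjusted p = 0.855 and 0.993). Hsf1, Hspa1a, Hspa1b and Hspa8 have no named probe and were not analysed here.

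The partners of Bag3 in selective autophagy did not pass either. Of 17 tested probes of 13 genes, 0 passed in limma, 11 had a negative and 6 a positive difference, and 1, lower, had an unadjusted p under 0.05. The median was -0.08. That probe was of Map1lc3b, the LC3B protein of autophagosome membranes, with means of 0.29 ± 0.07 for Neo and -0.09 ± 0.21 for HDAC4 (SD, n = 4 each; difference -0.37; adjusted p = 0.618). The other probe of Map1lc3b differed by 0.05 ± 0.20 (SE; adjusted p = 0.979). Bag5, a relative of Bag3 that acts on Hsp70, differed by -0.30 (adjusted p = 0.794), and Map1lc3a, the LC3A protein, by 0.25 (adjusted p = 0.849).

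Among the cytoskeletal proteins that small heat shock proteins bind, 14 probes of 7 genes were tested. Of these 0 passed in limma, 9 had a negative and 5 a positive difference, and 2, both lower and both of Ttn, had an unadjusted p under 0.05. The median was -0.13, and 59.5% of the values were at the floor. Ttn, the giant spring of the sarcomere, differed by -0.70 ± 0.20 and -0.54 ± 0.22 on these probes (SE; adjusted p = 0.380 and 0.690), and by -0.15 and 0.01 with the floor shift taken out. The first of them passed with array weights, at -0.55 (limma adjusted p = 0.0423), a fit in which 3.45% of all probes passed. The remaining tested probes of Ttn differed by -1.14, -0.65, 0.23, -0.36 and -0.13 in the group-only fit (limma adjusted p from 0.876 to 0.980). Actn2, the Z-disc actinin, differed by -2.44 ± 1.21 (SE; adjusted p = 0.770), and without HDAC4 replicate 2, which read 0.67, by -0.94 (adjusted p = 0.229). All 8 of its values were at the floor. With the floor shift taken out it differed by -1.89 (adjusted p = 0.857), in a fit that kept HDAC4 replicate 2.

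Of the kinases of the p38 and MK2 pathway, which leads to Hspb1, 7 probes of 6 genes were tested and 0 passed in limma. Of these 4 had a positive and 3 a negative difference, with a median of 0.12, and 1, higher, had an unadjusted p under 0.05. This was Map2k3, the activating kinase of p38, with means of 1.03 ± 0.24 for Neo and 1.43 ± 0.10 for HDAC4 (SD, n = 4 each; adjusted p = 0.623). With array weights, a fit in which 3.45% of all probes passed, Map2k3 passed at 0.51 (limma adjusted p = 0.0295). Without both arrays numbered 1 it differed by 0.54 (adjusted p = 0.0623). The probes of Mapk11, p38 beta, differed by -0.32 and -0.19 (adjusted p = 0.715 and 0.915).

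Other genes listed beside the small heat shock proteins of the set were barely seen. Cryaa, the lens alphaA-crystallin, had a value on Neo replicate 3 alone (1.13), and the testis genes Hspb9 and Odf1 had values on 2 arrays and 1 array. Hspb11 had no value on any array. Every one of these 4 values was at the reference floor, and none of the 4 genes could be tested.

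Genes whose pattern over the 8 arrays was most like that of a probe of the set were ranked by Pearson's r among 9571 or 9570 named probes with a value on every array. These points share the division into groups and the arrays numbered 1 that stand apart, so r is given as a description that serves only to rank. Bag3 was most like Stac2 (r = 0.98), Htra3 (0.97) and Porcn (0.97), whose differences were 0.65, 1.69 and 1.11. Hspb8 was most like Copz1 (0.99), Dlst (0.98) and Prmt1 (0.98), and Hspb7 most like Psmb10, Slc4a3 and Cisd1 (all 0.96). Hspb2 was most like Matr3 (0.97), Zfp821 (0.96) and Smc5 (0.95), and Hspb1 most like Pcmt1 (0.98), Bsg (0.97) and Idh3a (0.96). The probes of Cryab had no neighbour in common, with Sdf2 (0.98), Ufsp1 (0.97) and Asf1b (0.97) for the first and Mrpl53 (0.97), Mrpl21 (0.97) and Snf8 (0.96) for the second. Hspb3 lacked a value on HDAC4 replicate 3 and was not ranked.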

How the data were processed

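The values deposited by the authors are log2 ratios, with 1 for each probe on an array. Background correction and normalization are steps not given in the sources used here, and column medians lay between 0.00576 and 0.0286. Of 31769 probes, 18976 name 1 gene in the platform annotation, 404 name several and 12389 none. Symbols were updated through gene identifiers of RefSeq GRCm38.p6, and 41 kept the annotation's symbol.

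Each array was centred on its median. Each probe was a feature, because probes of a gene differ in level and in missing values, and needed at least 3 values in each group of 4. The groups were compared in limma 3.58.1 (lmFit and eBayes, R 4.3.3), with Benjamini-Hochberg adjustment over all 16748 tested probes and a threshold of 0.05. The steps were tested on simulated data. Single probes had an exact two-sided permutation test. Precision is limited by the number of arrays.

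The genes, lists and tests were chosen with earlier results of these data known. Every gene of the set was named, with the 3 probes of smallest p in each other list and the 3 most correlated probes. Promoters were read from RefSeq, and those of the genes with separate groups are shown.

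Same-numbered arrays correlated in their deviations from group means at 0.53, 0.31, 0.21 and 0.11 for numbers 1 to 4. All lie above 0.1, the limit set for pairing, though some differently numbered arrays correlated as much (Neo replicate 2 with HDAC4 replicate 4 at 0.27). The tests reported first have group as their only term and exchange arrays freely; fits with the number as a block and a permutation that keeps pairs are alternatives. Alternatives changed the unit of a feature, centring, scaling, filter, block, batch, floor and weights, or left out arrays.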

Additional observations from a re-analysis of the deposited data

Results flagged for a closer look

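In 4 of the 38 groups of 4 arrays examined among the probes of the set and the named probes of the other lists, 1 array lay far from the other 3. Chance gives this in about 1 in 20 groups. None of the 8 probes of the set was among them, but the HDAC4 group of Hspb3, with 3 values, was not examined. Actn2 read 0.67 on HDAC4 replicate 2, against 6.45 to 6.99 on the other HDAC4 arrays. Map2k3 read 1.39 on Neo replicate 1, against 0.88 to 0.95. Map1lc3a read 2.68 on Neo replicate 4, against 2.94 to 2.98, and 2.78 on HDAC4 replicate 1, against 3.24 to 3.27. Without the array that stood apart, the difference of Actn2 was -0.94 in place of -2.44 and that of Map2k3 0.52 in place of 0.40. That of Map1lc3a, 0.25 over all arrays, was 0.18 without Neo replicate 4 and 0.36 without HDAC4 replicate 1. None of these passed in limma.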

How the results depend on the processing

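Each result was recomputed under 22 alternatives, 8 of which leave out 1 array; 1, which joins the batch term with the floor offset, was chosen after seeing the data. The count of 21 probes became 32 with scaling, 9 with the replicate block, 108 with replicate 1 as a batch, 268 without both arrays numbered 1, 577 with array weights, and 0 with the floor offset removed or without probes at the floor, where 1145 and 829 probes had an unadjusted p under 0.05 in limma. Leaving out 1 array gave 0 to 81 probes, 81 and 71 without HDAC4 replicate 1 and Neo replicate 1, and 4 or fewer without any other, with 896 to 999 probes at an unadjusted p under 0.05 in limma where the count was 0. The replicate block changed no call in the set. The count of genes of the set that passed, 0, became 1 with the batch, 1 without both arrays numbered 1 and 3 with array weights, and lay between 0 and 1 with 1 array left out. Hspb3, at -1.38, passed at -1.33, -1.08 and -1.13 in those fits and ranged from -1.57 to -1.05 with 1 array left out; Hspb7 and Bag3 passed with array weights at -1.06 and 0.50. Signs turned for Hspb1 without both arrays numbered 1 (0.02) and with array weights (0.06), and for the first Cryab probe with quantile normalization (0.01) and without both arrays numbered 1 (0.00). They turned for the second Cryab probe without both arrays numbered 1 (0.15), with array weights (0.07), and with the offset removed, alone or with the batch (0.01 in each). With 1 array left out these 3 probes ranged from -0.27 to 0.09, -0.11 to 0.05 and -0.23 to 0.04. Hspb2, Hspb3, Hspb7, Hspb8 and Bag3 kept their sign in every alternative that could be fitted. The median of autophagy partners was -0.18 without both arrays numbered 1, and that of p38 kinases ranged from -0.06 to 0.21 with 1 array left out. The cause of these moves was not tested.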
